A study of Mus musculus with 24 samples.

Results

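Whole lung of uninjured mice that had received gapmer 3 against Dnm3os was compared with whole lung of uninjured mice that had received a control gapmer. The comparison uses 6 of the 24 arrays of the study, 3 with gapmer 3 and 3 with the control gapmer, chosen by the group named in the sample titles. All 20728 named genes on the array were examined, each through 1 array feature, its brightest by the mean of the 24 arrays. The PBS gapmer 3, PBS gapmer 1 and PBS control gapmer groups hold 3 arrays each, and the bleomycin groups with the same 3 gapmers hold 5 each. Bleomycin breaks DNA and is used in mice to provoke lung fibrosis, and PBS, a salt solution, takes its place in uninjured animals. Every mouse was C57BL/6 and 9 to 12 weeks old, every sample was total RNA of whole lung, and every animal had received a gapmer, so no group is free of an oligonucleotide. The sources used here do not give gapmer dose, route or timing, the sex of the mice or array batches. Samples are numbered without naming animals, so p-values reflect only the scatter of these samples, which may be technical.

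A gapmer is a short antisense oligonucleotide with a DNA core between modified ends. It pairs with its target RNA, and the enzyme RNase H then cuts the RNA of the hybrid, mostly in the nucleus. Dnm3os is a long noncoding RNA transcribed from the strand opposite to the dynamin gene Dnm3, and it is the precursor of the microRNAs miR-199a-2 and miR-214. These microRNAs are abundant in fibroblasts and other mesenchymal cells and are known from work on lung fibrosis. The mature products are shown because a gapmer that cuts Dnm3os cuts their shared precursor. All 4 lie within Dnm3os on the plus strand of chromosome 1 (RefSeq, GRCm38.p6), and Dnm3os itself, at chr1:162217623-162225550, lies within Dnm3. Capitals mark the seed, bases 2 to 8, which pairs with target RNAs, and no seed is shared between the 4.
mmu-miR-199a-5p: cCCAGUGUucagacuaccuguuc
mmu-miR-199a-3p: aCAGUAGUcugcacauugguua
mmu-miR-214-5p: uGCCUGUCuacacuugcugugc
mmu-miR-214-3p: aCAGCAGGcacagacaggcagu

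Values throughout are log2 intensities as the authors deposited them, and a difference of 1 is a 2-fold change. They ran from 5.03 to 18.25 over all arrays, with a median gene mean of 8.54 and a 25th percentile of 6.11, below which probes are dim. The tissue label held: Sftpc, the surfactant protein C gene of alveolar type 2 cells, lay near the top of the scale at 17.96 ± 0.02 with gapmer 3 and 17.99 ± 0.02 with control (SD, n = 3 each). RNA integrity numbers were 9.8, 9.3 and 9.8 with gapmer 3 and 9.1, 9.5 and 9.3 with control. Any 2 of the 6 arrays compared correlated between 0.981 and 0.995. The median 95% interval of a gene's difference reached 0.24 to either side, and 3 arrays a group set that precision. The median of all 20728 differences was -0.02. Quantile normalisation between arrays by itself keeps this median small, so it does not show whether the groups were level.

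The labels were checked on the target itself. The brightest of 3 Dnm3os features read 6.12, 6.22 and 5.95 with gapmer 3, against 6.37, 6.27 and 6.39 with control. The groups did not overlap, with gapmer 3 below control, but the difference of -0.25 (SE 0.14, 95% interval -0.53 to 0.04) did not pass (limma adjusted p = 0.577). An exact two-sided permutation test gave p = 0.1, the smallest that the 20 assignments of 3 against 3 allow. The other features read 5.48, 5.97 and 5.67 with gapmer 3 and 5.86, 5.90 and 5.80 with control, and 5.74, 5.70 and 5.70 with gapmer 3 and 5.78, 5.80 and 5.93 with control. These levels lie at or under the dim end of the scale, so the array could not resolve the size of a loss of Dnm3os in uninjured lung. In bleomycin lung the brightest feature read 6.26 to 6.78 on the 5 gapmer 3 arrays and 6.64 to 7.05 on the 5 control arrays. It fell there by 0.50 (limma adjusted p = 0.00293), and this effect differed from that in PBS lung by -0.25 (limma adjusted p = 0.480). With gapmer 1 in PBS lung it read 5.76, 5.85 and 6.06, a difference from control of -0.45 (limma adjusted p = 0.0882). Dnm3 read 7.36, 7.40 and 7.28 with gapmer 3 and 7.52, 7.20 and 7.11 with control (difference 0.07, limma adjusted p = 0.962). Among 9 genes of the locus and its surroundings none passed. The lowest p belonged to Prrx1, a mesenchymal transcription factor gene, which differed by -0.29 (limma adjusted p = 0.498).

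Few genes passed the test between uninjured lungs with gapmer 3 and with the control gapmer. With 3 arrays a group this does not show that few genes differed. At a limma adjusted p under 0.05, 7 of 20728 genes passed (0.0338%), of which 2 rose (0.00965%) and 5 fell (0.0241%). The 2 that rose were Spag11b and Plagl1, and the 5 that fell were Ptprs, Ptger3, Mogat2, Upk3a and Itgbl1. At an unadjusted p under 0.05 there were 598 genes higher (2.88%) and 1426 lower (6.88%). The arrays of the groups did not overlap in 876 genes that were higher (4.23%) and 1729 that were lower with gapmer 3 (8.34%). Past 2-fold, without any test, 40 genes were higher (0.193%) and 35 lower (0.169%). Which genes pass depends on single arrays: the count was 2 without gapmer 3 replicate 1 or without control replicate 3, 3 without control replicate 1, and 30 without control replicate 2. It was 4 with the RNA integrity number as a covariate and 1 when the fit was limited to the 6 arrays compared. The differences of the genes lost with that covariate were close to those without it, at 0.57 for Plagl1, -0.93 for Upk3a and -0.75 for Itgbl1, and the fit limited to 6 arrays has the same differences by construction.

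**Figure D1:**
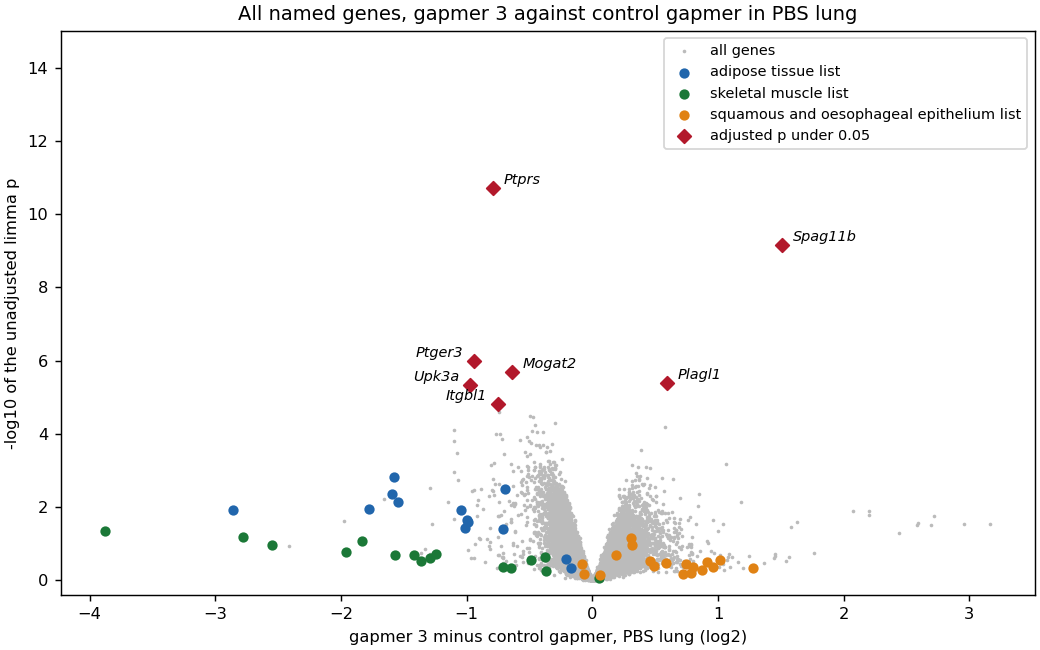
Difference between gapmer 3 and control gapmer in PBS lung (log2, x axis) against -log10 of the unadjusted limma p (y axis) for 20728 genes, each a point. The 7 genes with an adjusted p under 0.05 are red diamonds. Adipose genes (blue) lie on the lower side, while skeletal muscle (green) and squamous genes (orange) differ widely with high p.

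Ptprs had the smallest p of all genes. It encodes receptor protein tyrosine phosphatase sigma, which binds proteoglycans at the cell surface. The level was 12.56, 12.48 and 12.58 with gapmer 3, against 13.29, 13.25 and 13.44 with control. The 3 gapmer 3 arrays lay close together and well below all control arrays. Ptprs fell to 0.579-fold (log2 -0.79, SE 0.06, limma adjusted p = 3.98e-07). With gapmer 1 it stood at 13.37 ± 0.05 (SD, n = 3), at the control level of 13.33 ± 0.10, and the difference between gapmer 3 and gapmer 1 itself passed (-0.83, SE 0.06, limma adjusted p = 7.96e-08). In bleomycin lung Ptprs read 13.10 to 13.23 on the 5 gapmer 3 arrays and 13.44 to 13.55 on the 5 control arrays, and it fell there by 0.33 (limma adjusted p = 9.12e-05). The fall was thus smaller after injury, and the difference between the falls passed (0.46, SE 0.08, limma adjusted p = 0.00309).

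Spag11b had the largest rise among the 7. It belongs to the beta-defensin cluster and encodes a sperm-associated antigen best known from the epididymis. It read 9.61, 9.52 and 9.85 with gapmer 3, against 8.21, 8.18 and 8.06 with control, so the groups were far apart. Spag11b rose 2.84-fold (log2 1.51, SE 0.14, limma adjusted p = 7.2e-06). Its second feature behaved alike, with 9.38, 9.08 and 9.54 under gapmer 3 and 8.01, 7.56 and 7.50 under control. The related gene Spag11a, measured by a feature of its own, read 5.78, 5.79 and 5.88 with gapmer 3 and 5.58, 5.65 and 5.54 with control, near the floor of the array. Which of the near-identical copies in this cluster gave the signal is uncertain. With gapmer 1 the level was 7.74 ± 0.09 (SD, n = 3), below control by 0.41 (limma adjusted p = 0.135), and gapmer 3 exceeded gapmer 1 by 1.92 (SE 0.14, limma adjusted p = 7.96e-08). In bleomycin lung Spag11b was dim in both groups, 6.50 to 6.96 with gapmer 3 and 6.21 to 6.56 with control. The difference there was 0.32 (limma adjusted p = 0.0643), smaller than in PBS lung by 1.19 (SE 0.18, limma adjusted p = 0.00113).

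Plagl1 also rose. It encodes a zinc finger transcription factor that is imprinted and restrains cell growth. It read 13.44, 13.29 and 13.37 with gapmer 3 and 12.83, 12.92 and 12.57 with control, with no overlap. The rise was 1.51-fold (log2 0.59, SE 0.10, limma adjusted p = 0.0162). A second bright feature read 12.92, 13.05 and 13.05 with gapmer 3 and 12.65, 12.85 and 12.47 with control, again without overlap. The dimmer pair of features differed by 0.15 and -0.03. Plagl1 rose in bleomycin lung as well, by 0.58, with 12.88 to 13.01 on gapmer 3 arrays and 12.23 to 12.53 on control arrays (limma adjusted p = 2.75e-05). The effect in the injured lungs differed from that in the uninjured by -0.01 (SE 0.12, limma adjusted p = 0.973). With gapmer 1 in PBS lung the level was 12.99 ± 0.12 (SD, n = 3), and the difference from control of 0.22 did not pass (limma adjusted p = 0.237).

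Upk3a, the gene of uroplakin 3A, a membrane protein best known from the urothelium and found in a subset of airway secretory cells, fell. It read 6.80, 7.19 and 7.07 with gapmer 3, against 8.12, 7.75 and 8.12 with control. The highest gapmer 3 array lay below the lowest control array, and the level was 0.509-fold (log2 -0.98, SE 0.16, limma adjusted p = 0.0162). In bleomycin lung it fell as well, by 1.25, with 7.31 to 7.77 on gapmer 3 arrays and 8.57 to 9.10 on control arrays (limma adjusted p = 1.25e-06). The fall with gapmer 1 in PBS lung was 0.79 (limma adjusted p = 0.0251), measured against the same control arrays. Gapmer 3 differed from gapmer 1 by -0.19 (limma adjusted p = 0.858).

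The remaining 3 genes fell in PBS lung and did not pass in bleomycin lung. Ptger3, the EP3 receptor for prostaglandin E2, read 6.73, 6.75 and 7.18 with gapmer 3 and 7.64, 7.96 and 7.89 with control. It fell by 0.94 (SE 0.14, limma adjusted p = 0.00708), and its second, dimmer feature read 6.24, 6.28 and 6.44 with gapmer 3 and 6.80, 6.98 and 6.76 with control. Both features separated the groups. With gapmer 1 Ptger3 fell by 0.67 (limma adjusted p = 0.0259). Mogat2, an acyltransferase of triglyceride synthesis, read 6.69, 6.49 and 6.77 with gapmer 3 and 7.38, 7.19 and 7.31 with control. It fell by 0.64 (SE 0.10, limma adjusted p = 0.0105), and with gapmer 1 it differed by -0.39 (limma adjusted p = 0.0536). Itgbl1, which encodes a secreted protein with integrin beta-like repeats, was next. It read 8.59, 8.90 and 8.53 with gapmer 3 and 9.43, 9.27 and 9.57 with control, and fell by 0.75 (SE 0.13, limma adjusted p = 0.0446). The second Itgbl1 feature was near the floor, at 5.77 ± 0.27 with gapmer 3 and 5.67 ± 0.13 with control (SD, n = 3 each). In bleomycin lung the differences were -0.11 for Ptger3, 0.10 for Mogat2 and -0.13 for Itgbl1. Each effect in bleomycin lung differed from that in PBS lung, at limma adjusted p = 0.0147, 0.00331 and 0.0499. Spag11b, Ptger3, Mogat2 and Upk3a have a mean level over all arrays below the median gene.

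**Figure D2:**
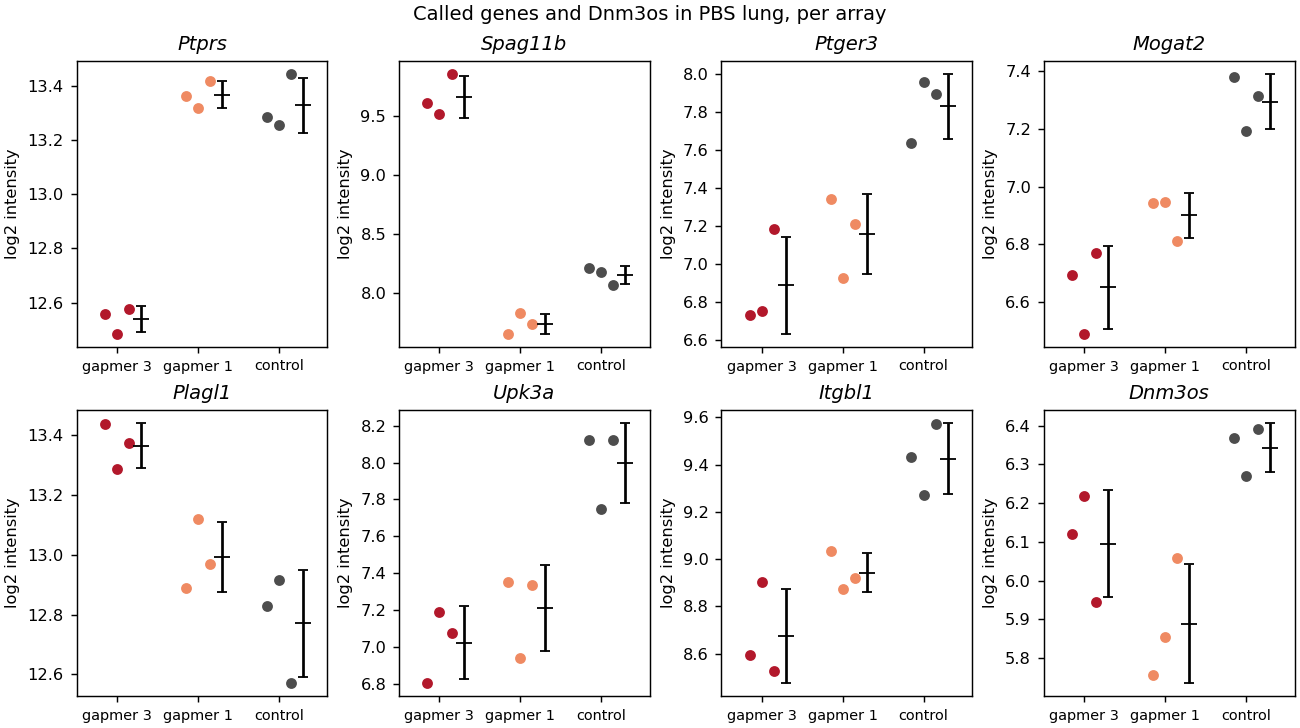
Log2 intensity (y axis) on each PBS array of gapmer 3, gapmer 1 and control gapmer for the 7 genes that passed and for Dnm3os. Points are arrays and bars are the mean and SD of 3. Gapmer 1 arrays lie with control for Ptprs and below control for Spag11b, while for Ptger3, Mogat2, Upk3a and Itgbl1 they lie between the groups or with gapmer 3. Each y axis spans its own gene's range.

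Considered together, 5 of the 7 effects in PBS lung differed from the effect in bleomycin lung in the test of the difference, against 3.09% of all genes. The 7 were picked on the PBS arrays that enter this test, which favours a difference. Their share is thus not comparable with that of all genes. Ptprs, Plagl1 and Upk3a passed in both lungs in the same direction. In bleomycin lung, with 5 arrays a group, gapmer 3 against control passed in 2726 of 20728 genes (13.2%). Across all genes the differences in PBS and in bleomycin lung, which share no arrays, had the same sign in 50.4% of genes and a correlation of -0.067 over 20728 genes, given as a description because genes are not independent. Against gapmer 1 in PBS lung, 12 genes passed (0.0579%), 3 higher (0.0145%) and 9 lower (0.0434%) with gapmer 3, and Ptprs and Spag11b were the only ones of the 7 among them. The other 10 did not pass against control. With an array left out the 12 became 5 to 253, the highest without gapmer 3 replicate 1, and the genes past the test of PBS against bleomycin effects, 641, became 246 to 1161. Gapmer 1 against control passed in 230 genes (1.11%), and that comparison uses the same control arrays.

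**Figure D3:**
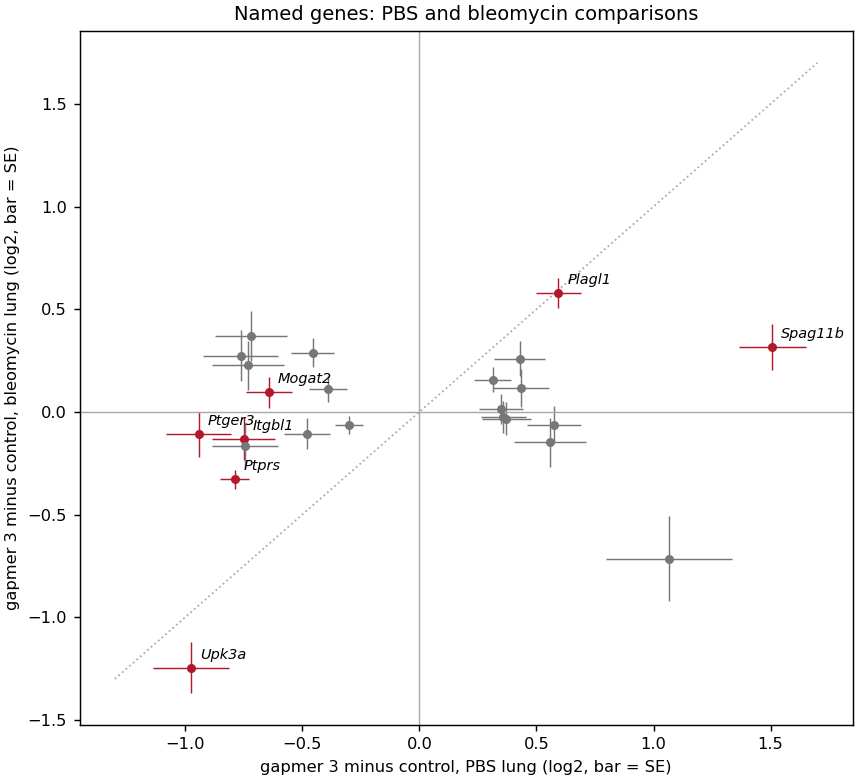
Difference between gapmer 3 and control gapmer in PBS lung (x axis, log2) and in bleomycin lung (y axis, log2) for the 7 genes that passed (red) and for the other genes with small p (grey), with SE bars. Plagl1 and Upk3a lie near the dotted line of equal differences, and Spag11b and Ptprs lie nearer to 0 on the bleomycin axis.

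Beyond the 7, the genes with the smallest p above the median level were examined, and none of these passed. Among higher genes Reg3g, an antibacterial lectin of airway epithelium, read 13.25, 13.21 and 13.57 with gapmer 3 and 11.98, 12.68 and 12.18 with control (difference 1.07, SE 0.27, limma adjusted p = 0.253). Lcn2, which encodes an iron-binding defence protein, read 14.56, 14.29 and 14.06 with gapmer 3 and 13.84, 13.96 and 13.82 with control (difference 0.43, limma adjusted p = 0.253). Neither group pair overlapped. Other higher genes were AU040972 (0.58, limma adjusted p = 0.101), the interferon-inducible Apol9b (0.56), Zfp609 (0.44), the kinase gene Stk4 (0.37), the leukocyte integrin Itgb2 (0.36), the polymerase III subunit Polr3b (0.35) and the folate enzyme Mthfd1 (0.31). Reg3g and AU040972 went the other way in bleomycin lung, at -0.71 and -0.06, and those effects differed from PBS lung (limma adjusted p = 0.00718 and 0.0211).

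On the lower side Robo1, a receptor for the guidance protein Slit, came closest to the threshold. It read 8.69, 8.73 and 8.69 with gapmer 3, against 9.38, 9.27 and 9.70 with control (difference -0.75, SE 0.14, limma adjusted p = 0.0674). A pair of enzymes of glycerolipid synthesis had small p as well: Gpat4 differed by -0.30 (limma adjusted p = 0.0937) and Agpat2 by -0.72 (limma adjusted p = 0.137). Agpat2 read 12.86, 12.81 and 13.39 with gapmer 3 and 13.59, 13.98 and 13.65 with control. The others were the hair keratin-associated gene Krtap17-1 (-0.76), the endocytic adaptor Ston1 (-0.73), Sntb2 (-0.48), Tcim (-0.46) and 4921531C22Rik (-0.39). Krtap17-1 was also lower than with gapmer 1, by 1.04 (limma adjusted p = 0.0103).

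Gene lists for pathways, lung cells and other tissues were then read as counts and medians, with the median of all genes at -0.02. They were 40 lists with 596 distinct measured genes, and no member of any list passed over all genes, so the values below are differences that did not pass. The list medians lay between -0.16 and 0.27 for 36 lists. The exceptions were skeletal muscle, slow skeletal muscle and adipose tissue on the lower side and squamous epithelium on the higher side. All 4 mark tissues other than the alveoli. In bulk tissue, fewer cells of a type and less RNA per cell cannot be told apart. Members of a list can move together from array to array, so counts of members are descriptions, not separate observations.

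**Figure D4:**
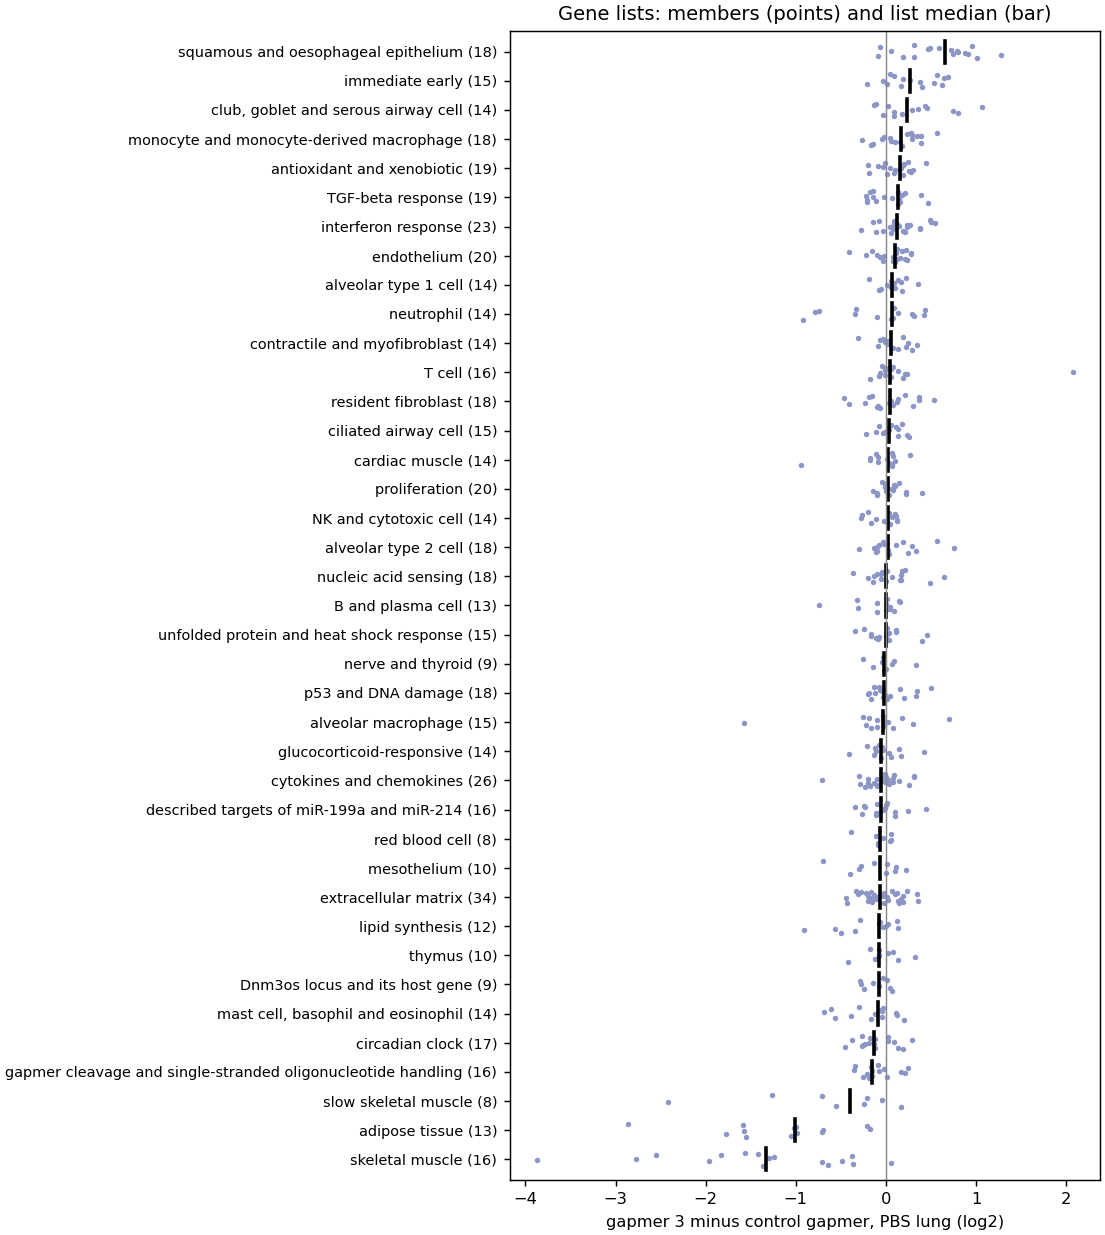
Difference between gapmer 3 and control gapmer in PBS lung (log2, x axis) for every measured member (points) of 39 gene lists, with the list median as a bar and the number of members in brackets. Skeletal muscle, adipose tissue and slow skeletal muscle have the lowest medians and squamous epithelium the highest.

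Adipose genes were lower with gapmer 3. All 13 measured members had a negative difference, with a median of -1.01, and 11 of 13 had an unadjusted p under 0.05 on the lower side, against 6.88% of all genes. In 7 of 13 the groups did not overlap, against 8.34% of all genes. None passed the adjustment over all genes. The 13 were read on the same arrays and are not 13 independent observations. Fabp4, the fatty acid binding protein of adipocytes that capillary endothelium and macrophages also make, read 12.76, 13.01 and 14.21 with gapmer 3 and 14.56, 15.18 and 14.97 with control (difference -1.58, SE 0.43, limma adjusted p = 0.28). The adipocyte hormone Adipoq read 10.24, 11.32 and 12.10 with gapmer 3 and 12.37, 13.28 and 12.66 with control (difference -1.55, limma adjusted p = 0.375). Retn, the resistin gene, read 9.87, 10.86 and 11.90 with gapmer 3 and 11.94, 12.80 and 12.65 with control (difference -1.59, limma adjusted p = 0.338). For each of these 3 the groups did not overlap, and gapmer 3 replicate 3 came nearest to control. The brown fat gene Ucp1 behaved less evenly, at 10.06, 5.85 and 7.09 with gapmer 3 and 9.94, 11.43 and 10.22 with control, so gapmer 3 replicate 1 lay among the control arrays.

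The adipose list score, the mean over members of the log2 difference from the PBS control mean, was -1.28, -1.55 and -0.68 with gapmer 3, against -0.36, 0.45 and -0.10 with control. With gapmer 1 it was -0.04, -0.81 and -0.74, so 2 of its 3 arrays lay within the gapmer 3 range. It averaged -1.08 ± 0.65 with gapmer 3 and -1.20 ± 0.19 with control in bleomycin lung (SD, n = 5 each). Lipid synthesis enzymes, which adipocytes carry in quantity, had a median of -0.07, with 4 of 12 positive. On the lower side 5 of 12 had an unadjusted p under 0.05, against 6.88% of all genes: Elovl6 (-0.91), Fasn (-0.56), Acaca (-0.50), Acly (-0.34) and Srebf1 (-0.29). Fasn, the fatty acid synthase gene, read 10.13, 10.01 and 10.45 with gapmer 3 and 10.58, 11.03 and 10.67 with control. When the adipose score was a covariate, an alternative added after the data were seen, 2 genes passed in place of 7, Ptprs and Spag11b. The differences of the 5 that no longer passed were then -0.99 for Upk3a, -0.84 for Itgbl1, 0.63 for Plagl1, -0.52 for Mogat2 and -0.67 for Ptger3.

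Most muscle genes were set apart by 1 array. Tnnc2, fast skeletal troponin C, read 15.38, 6.80 and 15.45 with gapmer 3 and 14.74, 15.62 and 14.93 with control. The fast myosin gene Myh4 read 11.67, 5.51 and 13.70 with gapmer 3 and 12.69, 13.27 and 13.25 with control, and Myh1 read 12.76, 5.47 and 13.11 with gapmer 3 and 11.80, 13.27 and 12.15 with control. Gapmer 3 replicate 2 was thus near the floor for these 3 genes, which the other 5 arrays held at high levels. The skeletal muscle list of 16 genes had a median of -1.33 and a score of -0.16, -4.57 and 0.52 with gapmer 3, against -0.37, 0.63 and -0.26 with control. None of the 16 separated the groups. The group difference in score rested on that array, and without gapmer 3 replicate 2 it was 0.18. Only Myh2 had an unadjusted p under 0.05. It read 7.44, 5.87 and 13.78 with gapmer 3 and 11.81, 13.89 and 13.02 with control (difference -3.87, SE 1.82, limma adjusted p = 0.504), so for Myh2 replicate 1 was low as well.

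Squamous epithelial genes, which line the oesophagus and skin, varied as widely. The oesophageal keratin Krt13 read 14.74, 5.64 and 10.64 with gapmer 3 and 10.14, 11.25 and 5.80 with control. Lor, the loricrin gene of cornified cells, read 16.18, 7.37 and 12.51 with gapmer 3 and 12.27, 13.87 and 7.75 with control. Lce3a and Crct1, also of cornified cells, were likewise highest on gapmer 3 replicate 1 and near the floor on gapmer 3 replicate 2 and control replicate 3. High and low arrays thus stood in both groups. The list score was 2.61, -1.20 and 0.31 with gapmer 3, against 0.30, 0.97 and -1.27 with control, and it lay between 2.10 and 2.67 on the gapmer 1 arrays. Of 18 members 16 had a positive difference, the median was 0.66, and none had an unadjusted p under 0.05. Without gapmer 3 replicate 1 the difference in score was -0.44. Over all genes, 272 had an SD above 1 within the gapmer 3 group, against 67 in the control group. With the muscle score as a covariate 7 genes passed, 6 of them among the 7 named above, and with the squamous score, added after the data were seen, 6 of those 7 did. Itgbl1 was the one lost in both, at -0.78 and -0.73.

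**Figure D5:**
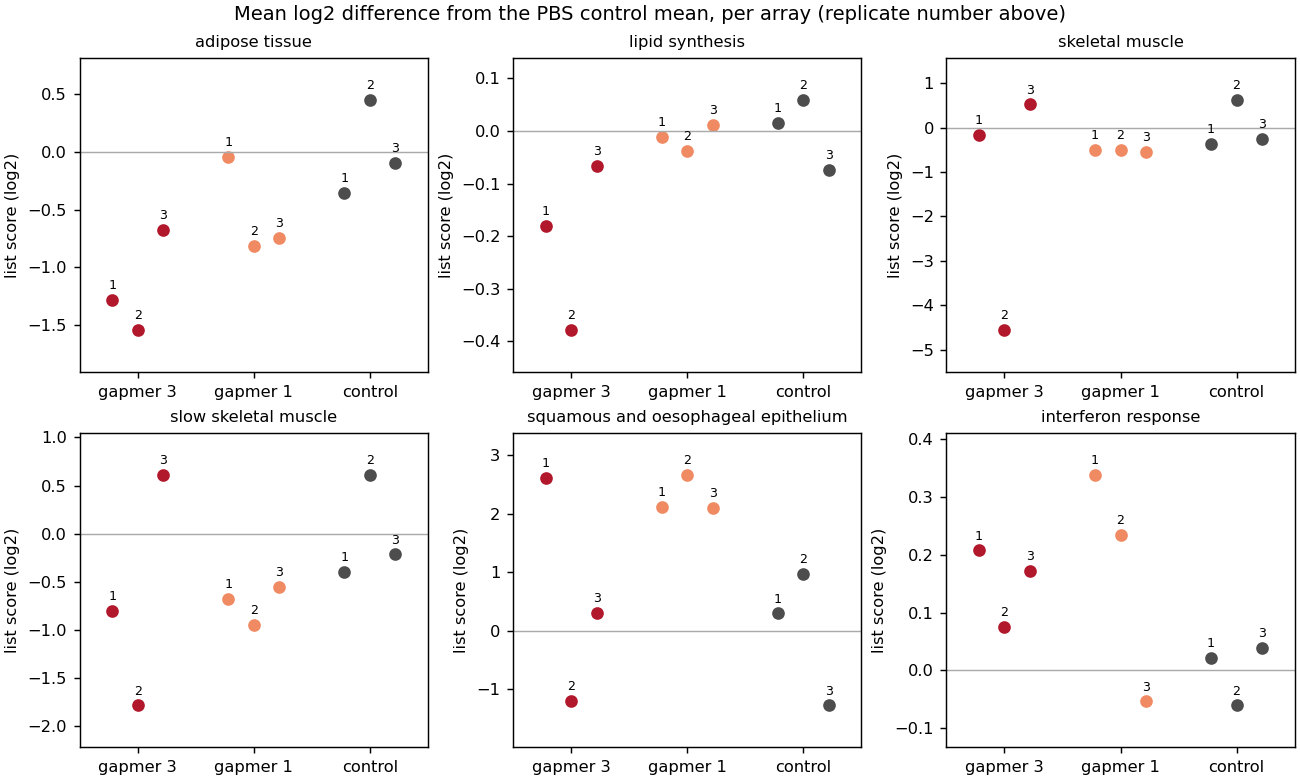
List score (y axis, mean log2 difference from the PBS control mean) on each PBS array for 6 gene lists, with gapmer 3, gapmer 1 and control from left to right and the replicate number above each point. Adipose scores of all gapmer 3 arrays lie below all control arrays, while gapmer 3 replicate 2 stands far below all others in the muscle score.

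No difference passed among the scar and matrix genes that are the usual readout of fibrosis. With 3 arrays a group this does not show that they were level. Col1a1 read 13.04, 12.85 and 12.73 with gapmer 3 and 13.11, 12.94 and 13.05 with control (difference -0.16, limma adjusted p = 0.789). The differences were -0.20 for Col3a1, 0.02 for the fibronectin gene Fn1, -0.16 for the protease inhibitor Timp1, 0.12 for the osteopontin gene Spp1 and 0.29 for the smooth muscle actin Acta2. In each of these 6 genes the groups overlapped. The 34 genes of the extracellular matrix list had a median of -0.07. The groups did not overlap in 5 that were lower and 1 that was higher, against 8.34% and 4.23% of all genes. An unadjusted p under 0.05 was found for 4 of the 34, all lower, against 6.88% of all genes. The smallest p was that of Col14a1, a collagen that binds fibrils, with 10.40, 10.50 and 10.45 under gapmer 3 and 10.81, 10.78 and 11.05 under control (difference -0.43, SE 0.10, limma adjusted p = 0.146). The others were Fbln1 (-0.45), Vcan (-0.33) and Postn (-0.31). Resident fibroblast markers gave a median of 0.04, with Pi16 (-0.47), a marker of adventitial fibroblasts, and the hedgehog target Gli1 (-0.41) on the lower side at an unadjusted p under 0.05.

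Described targets of miR-199a and miR-214 showed no common direction. Of 16 measured, 6 had a positive and 10 a negative difference, with a median of -0.06, while 54.25% of all genes were negative. At an unadjusted p under 0.05, 2.88% of all genes were higher and 6.88% lower. Ptgs2, the cyclooxygenase 2 gene, differed by 0.45 and the growth factor Hgf by 0.25, while the collagen receptor Ddr1 differed by -0.27, each at an unadjusted p under 0.05. Ddr1 read 10.57, 10.75 and 10.59 with gapmer 3 and 10.78, 10.79 and 11.13 with control. Ptger3, which fell, and Ptgs2 belong to the same prostaglandin pathway, as background.

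Genes for handling of gapmers and sensing of nucleic acids were read next, since all groups had received an oligonucleotide. Rnaseh1, which encodes the enzyme through which gapmers act, differed by 0.21. The 16 handling genes leaned to the lower side, with 12 negative and a median of -0.16. Among them the paraspeckle proteins Sfpq (-0.36) and Nono (-0.16) and the RNase H2 subunit Rnaseh2c (-0.16) were lower at an unadjusted p under 0.05. The handling score was -0.13, -0.04 and -0.13 with gapmer 3 and -0.01, -0.01 and 0.02 with control, without overlap. With gapmer 1 it was -0.14, -0.10 and -0.11. In bleomycin lung it lay between -0.10 and -0.09 with gapmer 3 and between -0.01 and 0.05 with control. Of all genes, 2.88% were higher and 6.88% lower at that p, for comparison with each list here. Interferon response genes leaned to the higher side, with 18 of 23 positive and a median of 0.12, while 54.25% of all genes were negative. Ifit1, Ifit3, Oasl2 and Xaf1 had an unadjusted p under 0.05, at 0.38, 0.38, 0.50 and 0.49. The nucleic acid sensing list was even, with 9 of 18 positive and a median of 0.01. At an unadjusted p under 0.05 its members Irf7 (0.64) and Aim2 (0.49) were higher and Tlr7 (-0.37) and Irf3 (-0.20) lower. The interferon regulator Irf7 read 8.70, 8.30 and 8.44 with gapmer 3 and 7.90, 7.91 and 7.69 with control (limma adjusted p = 0.287). The interferon score was 0.21, 0.08 and 0.17 with gapmer 3 and 0.02, -0.06 and 0.04 with control, without overlap, and 0.34, 0.23 and -0.05 with gapmer 1.

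Alveolar lists had medians close to level, while airway secretory genes leaned to the higher side. Alveolar type 1 and type 2 lists had medians of 0.07 and 0.02. At an unadjusted p under 0.05, 2.88% of all genes were higher and 6.88% lower. Of 18 type 2 genes 10 were positive, and 4 had an unadjusted p under 0.05: the phosphate transporter Slc34a2 (0.57), the surfactant lipid enzyme Lpcat1 (0.76), the chitinase-like gene Chil1 (0.34) and, on the lower side, the alarmin Il33 (-0.30). Control replicate 3 was low for the first 3, and without it Slc34a2 differed by 0.38 and Lpcat1 by 0.40. Airway secretory genes had a median of 0.23, with Reg3g, the mucin Muc5b (0.45) and the secretoglobin Scgb3a1 (0.44) higher at an unadjusted p under 0.05. Of 14 members 11 were positive, and in 4 the groups did not overlap on the higher side, against 4.23% of all genes. The list score was 0.36, 0.16 and 0.40 with gapmer 3 and -0.03, 0.18 and -0.15 with control, so the groups overlapped. With gapmer 1 it was 0.54, 0.65 and 0.26. In bleomycin lung the list median was -0.51. Scgb3a1 read 15.79, 15.99 and 16.13 with gapmer 3 and 15.46, 15.60 and 15.54 with control, without overlap. Mesothelial genes, which cover the pleura, were split evenly, 5 positive and 5 negative, with a median of -0.07. At an unadjusted p under 0.05, 4 of 10 were lower, against 6.88% of all genes: Wt1 (-0.70, limma adjusted p = 0.189), Bnc1 (-0.40), Lrrn4 (-0.30) and Muc16 (-0.27). Wt1 read 9.26, 9.55 and 9.44 with gapmer 3 and 9.77, 10.12 and 10.47 with control, without overlap.

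Among 14 neutrophil genes 8 were positive and 6 negative, with a median of 0.06. At an unadjusted p under 0.05, 4 were lower and 1, Lcn2, higher, against 6.88% and 2.88% of all genes. Mpo, the myeloperoxidase gene, read 7.87, 7.94 and 8.06 with gapmer 3 and 8.65, 8.79 and 8.80 with control (difference -0.79, limma adjusted p = 0.335). Camp and Ngp, which like Lcn2 encode secondary granule proteins, differed by -0.92 and -0.75. Mast cell and eosinophil genes Prg2 (-0.61), Mcpt4 (-0.68), Cpa3 (-0.57) and Fcer1a (-0.39) were 4 of 14 lower at an unadjusted p under 0.05, against 6.88% of all genes, with a list median of -0.09. Alveolar macrophage genes had a median of -0.03, with 5 of 15 positive. At an unadjusted p under 0.05 the scavenger receptor Marco differed by 0.70, while Fabp4, described above, and the mannose receptor Mrc1 (-0.19) lay on the lower side. Marco read 13.17, 13.11 and 12.90 with gapmer 3 and 12.09, 12.44 and 12.55 with control. T, B and NK cell lists had medians of 0.05, 0.00 and 0.03. Of 15 immediate early genes 13 were positive, with a median of 0.27, while 54.25% of all genes were negative. Their list score was 0.71, 0.15 and 0.02 with gapmer 3 and 0.15, -0.09 and -0.06 with control, so the groups overlapped and gapmer 3 replicate 1 stood highest. Without that array Jun differed by 0.35 and Junb by 0.40, against 0.65 and 0.69 with it.

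Some large differences rested on 1 array feature on 1 array. A feature was counted when it lay more than 3 log2 units above its median over the 24 arrays on only 1 array. The gapmer 3 arrays held 19, 6 and 6 such features and the control arrays 1, 3 and 2. Of the 19 on gapmer 3 replicate 1, 12 stood next to another, within a line or in an adjoining line of an assumed array layout. That layout, derived from the numbering of features, was not established here. Il4, a T helper cytokine, read 14.32 on gapmer 3 replicate 1, where its other 9 features read 6.25 to 7.12. Cd8a, which marks cytotoxic T cells, read 12.45 on gapmer 3 replicate 2, where its other 10 features read 6.39 to 7.42. Rsbn1 read 16.66 on gapmer 3 replicate 1 and 8.54 on each of the other gapmer 3 arrays. The brighter Spag11b feature is on the list as well, since gapmer 3 replicate 3 lay just over 3 units above the median, but all 3 gapmer 3 arrays were high for that gene. Leaving such features out, an alternative added after the data were seen, left the same 7 genes past the threshold.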

How the data were processed

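Total RNA of whole lung was extracted with TRIzol and labelled with Cy3 for one-colour Agilent arrays, per the labels' protocols. The authors deposited log2 intensities of 62976 features on 24 arrays, which the values show to be quantile-normalised between arrays. limma is named in the submitters' processing notes, and background correction is not given in the sources used here. Of the features 31465 carry 1 gene symbol, updated through a RefSeq table of GRCm38.p6 used for names, and the brightest feature of each of 20728 genes was used without filtering dim genes.

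The test was limma's moderated one, two-sided (version 3.58.1, R 4.3.3, functions lmFit and eBayes). All 24 arrays entered a single model of 6 groups that left 18 residual degrees of freedom, and p-values had Benjamini-Hochberg adjustment over 20728 genes. An adjusted p under 0.05 passed. Plots were drawn with matplotlib 3.10.9. On simulated data for this comparison, over 20728 genes, the fit recovered 71.6% of genes changed 1.5-fold, 88.1% of those changed 2-fold and 100% of those changed 4-fold, and 4.42% of its calls were false. The simulated noise was independent between genes and had the same SD in every group. On the real arrays muscle and squamous genes moved together, and 272 genes had an SD above 1 within gapmer 3, against 67 within control. The rates thus describe the fit under simpler noise, not the power or error rate of this comparison.

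The comparison, genes and lists were chosen with earlier results of these data known. Text names were taken by rule: a short set around Dnm3os, matrix and lung, the 7 that passed, the 10 per direction with the smallest p above the median level and no overlap between groups, up to 4 members per list by p, and the 8 with the largest SD within gapmer 3. Upk3a, Spag11b, Mogat2 and Ptger3 are named because they passed, although below that level. Il4, Spag11a, Srebf1 and Ucp1 were named after their values were seen.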

Additional observations from a re-analysis of the deposited data

Results flagged for a closer look

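For 5 of the 7 genes that passed in PBS lung, the effect of gapmer 3 in bleomycin lung differed from that in PBS lung by the interaction term of the limma fit. As bleomycin minus PBS on the log2 scale, the differences were 0.46 for Ptprs (limma adjusted p = 0.00309), 0.62 for Itgbl1 (limma adjusted p = 0.0499), 0.74 for Mogat2 (limma adjusted p = 0.00331) and 0.83 for Ptger3 (limma adjusted p = 0.0147), all genes that fell in PBS lung. The difference was -1.19 for Spag11b (limma adjusted p = 0.00113), which rose in PBS lung. Genes that passed in PBS lung were picked in the same PBS arrays that enter these differences. Under the control gapmer, Spag11b differed by -1.79 between bleomycin and PBS lung and stood in bleomycin lung at 6.37 ± 0.14 (SD, n = 5), close to the 25th percentile of gene means of 6.11, so a difference there could be understated. In the bleomycin groups of 5 arrays no array of the 7 genes or of Dnm3os stood apart from the others by Dixon's test.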

How the results depend on the processing

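The count of genes that passed between gapmer 3 and control, 7, was 4 with the RNA integrity number as a covariate, 1 with only the 6 arrays compared, 2 with only the 9 PBS arrays, 2 with the adipose score as a covariate (added after the data were seen), 11 at an adjusted p under 0.1, and 2 to 30 with each array left out. Calls were lost with the adipose score at differences of -0.99 for Upk3a, -0.84 for Itgbl1 and 0.63 for Plagl1, as large as without it, and of -0.52 for Mogat2 and -0.67 for Ptger3. With only the 6 or the 9 arrays the differences are the same by construction. Ptprs passed in 22 of 23 alternatives, Spag11b in 23, Mogat2 and Ptger3 in 16, Upk3a in 14, Plagl1 in 13 and Itgbl1 in 10, with an unchanged direction in all 23 for each. Dnm3os did not pass in any, at differences of -0.31 to -0.17. The count of genes with unequal effects in PBS and bleomycin lung, 641, was 1763 with array weights, 287 with the RNA integrity number and 246 to 1161 with each array left out. For gapmer 3 against gapmer 1, 12 genes became 161 with array weights, 5 with the RNA integrity number and 5 to 253 with each array left out. The causes were not tested.

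Replicate numbers recur in all groups. Deviations of same-numbered gapmer 3 and control arrays correlated at 0.27, -0.23 and 0.14. Only these pairs were compared, so the correlations cannot decide whether the numbers pair samples. With the replicate number as a block 6 genes passed between gapmer 3 and control, 5 of them among the 7. With it 14 genes passed between gapmer 3 and gapmer 1, against 12 without, and 1115 in the test of unequal effects, against 641.

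Of 2436 pairs of a named gene and an alternative, the direction turned in 38. With the median of all features the differences were -0.14 for Cd8a, -0.0040 for Il4, -0.010 for Stk4, -0.030 for Itgam and 0.046 for Vcan. Without single-array high features they were -0.15 for Cd8a and -0.0091 for Il4. With the squamous score as covariate they were -0.55 for Crct1, -0.098 for Krt13, -0.17 for Lce3a and -0.71 for Lor. With the adipose score as covariate they were -0.15 for Fn1, 0.099 for Mcpt4, 0.67 for Myh1, 0.18 for Myh4, -0.12 for Spp1 and 0.17 for Tnnc2. With the muscle score they were -0.028 for Fn1 and 0.061 for Myh1, with the RNA integrity number -0.046 for Fn1 and -0.026 for Lor, and with array weights -0.028 for Dnm3. With each array left out the ranges were -1.32 to 3.14 for Crct1, -0.014 to 0.19 for Dnm3, -0.048 to 0.12 for Fn1, -0.92 to 3.63 for Krt13, -0.87 to 3.73 for Lce3a, -1.36 to 3.05 for Lor, -3.29 to 0.53 for Myh1, -0.27 to 3.80 for Rsbn1, -0.023 to 0.22 for Spp1 and -4.00 to 0.32 for Tnnc2. Robo1 passed under 4 alternatives. Signals near the 25th percentile of gene means, such as Dnm3os, limit what these arrays can resolve.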

Other observations

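Further lung cell and stress lists were read in the same way, and none of their members passed over all 20728 genes. Of all genes, 54.25% had a negative difference. At an unadjusted p under 0.05, 2.88% were higher and 6.88% lower. Antioxidant and xenobiotic genes had a median difference of 0.16 between gapmer 3 and control in PBS lung, with 14 of 19 positive. Txnrd1, which encodes thioredoxin reductase, differed by 0.25, and Gclc and Gclm, the subunits of the enzyme that starts glutathione synthesis, by 0.28 and 0.26, each at an unadjusted p under 0.05, against 2.88% of all genes on the higher side. Control replicate 3 was low for Gclc and Gclm, and without it Gclc differed by 0.08 and Gclm by 0.11. Monocyte and monocyte-derived macrophage genes had a median of 0.17, with 13 of 18 positive. Gpnmb, Itgam and Cd14 differed by 0.39, 0.35 and 0.29 at an unadjusted p under 0.05. Endothelial genes had a median of 0.10, with 13 of 20 positive. At an unadjusted p under 0.05 Plvap and Pecam1, surface proteins of endothelium, differed by 0.28 each, and Sox17, an arterial transcription factor gene, lay on the lower side. Sox17 read 10.81, 11.28 and 11.12 with gapmer 3 and 11.46, 11.40 and 11.59 with control (difference -0.41, SE 0.11, limma adjusted p = 0.28). Clock genes had a median of -0.13, with Clock itself at -0.26. Of 20 proliferation genes none had an unadjusted p under 0.05, and their median was 0.03.

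The 31511 features without a gene symbol were tested in a fit of all features, and 0 passed in limma between gapmer 3 and control in PBS lung, while 1868 (5.93%) had an unadjusted p under 0.05, against 7.65% of all features.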
